A study of Mus musculus with 7 samples.

Results

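The genes described here are 39 genes listed as NF-κB induced inflammatory and survival genes. Among them are adhesion molecules, chemokines, cytokines, receptors and adaptors, inhibitors, survival genes and growth genes. Their induction by NF-κB was not tested here. They were chosen by name, and each was read from 1 probe set, the brightest on average among those annotated to that gene alone. All 39 were measured, out of 18193 genes and 45037 probe sets on the arrays, and together they had 81 probe sets. The study asked how NF-κB in heart muscle cells acts in Duchenne muscular dystrophy, and RNA was taken from the whole heart of 7 mice aged 7 months, with 1 heart on each Affymetrix array. Both groups were mdx mice, which lack dystrophin, and the methods state that males were used and that the mdx line came from the C57BL/10ScSn strain. In 4 mice, labelled Myh6-cre;IKKβΔ, Cre driven by the Myh6 promoter had deleted the floxed kinase gene, and these hearts are called mdx HRTΔIKKβ. The 3 controls, labelled IKKβf/f, carried the floxed gene with no Cre listed and are called mdx IKKβf/f. Myh6, which encodes the alpha myosin heavy chain, is active in cardiomyocytes, whereas the RNA came from every cell of the heart, including endothelium, leukocytes and fibroblasts, which this Cre does not target.

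NF-κB is a family of paired transcription factors that inhibitor proteins of the IκB family hold in the cytoplasm. Signals from tumor necrosis factor, interleukin-1 and Toll-like receptors activate the IKK complex, in which IKKβ marks the inhibitor for destruction, and the freed factor enters the nucleus and binds κB sites near its target genes. Its targets recruit leukocytes to the vessel wall, carry inflammatory signals, keep cells alive and restore the inhibitors. In dystrophic muscle the pathway is known to be active both in muscle fibers and in the inflammatory cells between them.

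RefSeq start sites on the mouse build GRCm38.p6 were given for 29 of the 39 genes, and the window from 250 bases before to 50 bases after each start was searched on both strands. Not covered were Cxcl5, Vcam1, Ccnd1, Myc, Cxcl16, Nos2, Plau, Nfkbiz, Cd83 and Cd40. The κB consensus was GGGRNWYYCC, where R is A or G, W is A or T, Y is C or T and N is any base. It was matched in 8 of the 29 genes (27.6%), while 5.136% of all 27025 genes with a window held a match. The stretches that hold these matches are shown because they are the site type through which the pathway acts. Each is printed in the direction of its gene, with the matched bases in capitals and overlapping matches merged.
Cxcl1, first capital 71 bases upstream of the start: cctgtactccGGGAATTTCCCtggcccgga
Cxcl2, first capital 97 bases upstream of the start: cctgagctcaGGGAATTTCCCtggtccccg
Csf1, first capital 154 bases upstream of the start: gggccttgagGGAAAGTCCCtaggggccag
Tlr2, first capital 173 bases upstream of the start: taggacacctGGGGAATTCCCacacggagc
Tlr2, first capital 8 bases upstream of the start: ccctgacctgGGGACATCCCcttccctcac
Nfkbie, first capital 106 bases upstream of the start: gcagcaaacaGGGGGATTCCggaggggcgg
Tnip1, first capital 58 bases upstream of the start: tccatcatgGGGGAATTCCCCtcctgcctc
Cyld, first capital 155 bases upstream of the start: ttgaccgagcGGAAAGTCCCttcagccagc
Sod2, first capital 83 bases upstream of the start: cggggcggacGGGGTTCCCCgaggcggggc
The capitals lay at chr5:90891174-90891184 for Cxcl1, chr5:90903802-90903812 for Cxcl2, chr3:107760614-107760623 for Csf1, chr3:83841771-83841781 and chr3:83841607-83841616 for Tlr2, and chr17:45555594-45555603 for Nfkbie. For Tnip1 they lay at chr11:54962987-54962998, for Cyld at chr8:88696873-88696882 and for Sod2 at chr17:13007756-13007765. Tlr2 held a pair of matches, and the neighbouring chemokine genes Cxcl1 and Cxcl2 shared the same capital letters. A match is a run of letters and says nothing of binding in these hearts. Sites that depart from the pattern or lie outside the window were not searched, so a gene without a match may still hold a κB site.

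The windows of Litaf and Myd88 are shown because both genes had unadjusted p-values below 0.05 in the comparison that follows. Neither held a κB match, and the capitals mark the GC box (GGGCGG, or its reverse complement). The Litaf window is chr16:10993072-10993371 on the minus strand and the Myd88 window is chr9:119339969-119340268 on the minus strand.
Litaf: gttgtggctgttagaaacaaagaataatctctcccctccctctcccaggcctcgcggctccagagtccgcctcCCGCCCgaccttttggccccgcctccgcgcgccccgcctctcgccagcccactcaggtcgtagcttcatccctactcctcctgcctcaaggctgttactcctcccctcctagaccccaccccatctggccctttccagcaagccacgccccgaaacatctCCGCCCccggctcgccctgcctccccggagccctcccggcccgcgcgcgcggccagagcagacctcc
Myd88: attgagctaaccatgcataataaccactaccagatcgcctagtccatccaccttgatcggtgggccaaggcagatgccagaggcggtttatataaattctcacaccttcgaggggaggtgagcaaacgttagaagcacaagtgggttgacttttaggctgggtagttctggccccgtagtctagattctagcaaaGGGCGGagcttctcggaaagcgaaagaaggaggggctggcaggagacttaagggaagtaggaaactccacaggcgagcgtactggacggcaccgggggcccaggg
The GC box was matched in 19 of the 29 genes (65.5%), against 38.2% of all genes with a window. The AP-1 site (TGANTCA) was matched in 6 of them, Sele, Selp, Il1a, Il1rn, Nfkbie and F3 (20.7%), against 8.973% of all genes. The 8 genes with a κB match had a median log2 difference between the groups of 0.02, and the 21 with a window but no match one of 0.05.

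Array medians differed little, from 6.73 to 6.75. Values are log2 values after RMA (robust multi-array average), and a difference is the mean of the mdx HRTΔIKKβ hearts less that of the mdx IKKβf/f hearts, with its standard error from limma. The heart markers were bright, with all 10 cardiomyocyte markers averaging 13.3 or more, and Myh6 averaged 14.8 in both groups. Ikbkb, which encodes IKKβ, read 8.44, 8.86, 8.75 and 8.82 in the mdx HRTΔIKKβ hearts and 8.82, 9.03 and 8.86 in the controls, a difference of -0.18 ± 0.11 (unadjusted p = 0.137). This is the brightest of its 5 probe sets. The sources used here do not place it inside or outside the floxed exon, so this value does not check the labels. The paper reported reduced Ikbkb expression in mdx HRTΔIKKβ hearts by qPCR. Markers of tissue outside the heart muscle differed between hearts of the same group. Skeletal muscle markers stood highest in mdx IKKβf/f heart 1, whereas airway and B cell markers did so in mdx HRTΔIKKβ heart 2, and neutrophil markers were raised in both of these hearts. Airway markers were raised in mdx HRTΔIKKβ heart 4 as well.

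None of the 39 genes passed the test over all probe sets. The lowest adjusted p among them was 0.56, for Myc, and over all 45037 probe sets the share called was 0%, with a smallest adjusted p of 0.336. At an unadjusted p of 0.05, Myc, Litaf and Myd88 were higher in mdx HRTΔIKKβ hearts, which is 7.69% of the genes against 3.31% of all probe sets. Cd83 alone was lower, which is 2.56% against 2.76% of all probe sets. All 4 mdx HRTΔIKKβ hearts lay above all 3 controls for Myc and Litaf (5.13%, against 3.01% of all probe sets), and no gene had the groups apart in the other direction (2.44% of all probe sets). Cd44 and Cxcl5 had means at least 1.5-fold higher (5.13%, against 0.79% of all probe sets) and no gene was 1.5-fold lower (0.242%). With so few genes in each count, 1 or 2 genes set these shares. The methods' t-test gave Myc, Litaf and Cd83 before adjustment and no gene after it.

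Of the 39 genes, 26 had a higher and 13 a lower mean in mdx HRTΔIKKβ hearts. That is 66.7% higher, against 47.7% of all genes. These signs come from 1 probe set per gene, and of the 21 genes with several probe sets 10 had differences of both signs. The median log2 difference was 0.04, against -0.01 over all genes. The median stood at 0.01 without mdx HRTΔIKKβ heart 1 and at 0.02 without mdx IKKβf/f heart 2. For 30 genes the difference was below 0.2 in size, and for 28 the 95% interval lay inside 1.5-fold in both directions. The 11 genes whose interval reached beyond 1.5-fold were Icam1, Vcam1, Sele, Selp, Cd44, Cxcl2, Cxcl5, Nfkbie, Nfkbiz, Myc and Litaf, and for all of them the upper end did so (for Cxcl5 the lower end too).

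**Figure D1:**
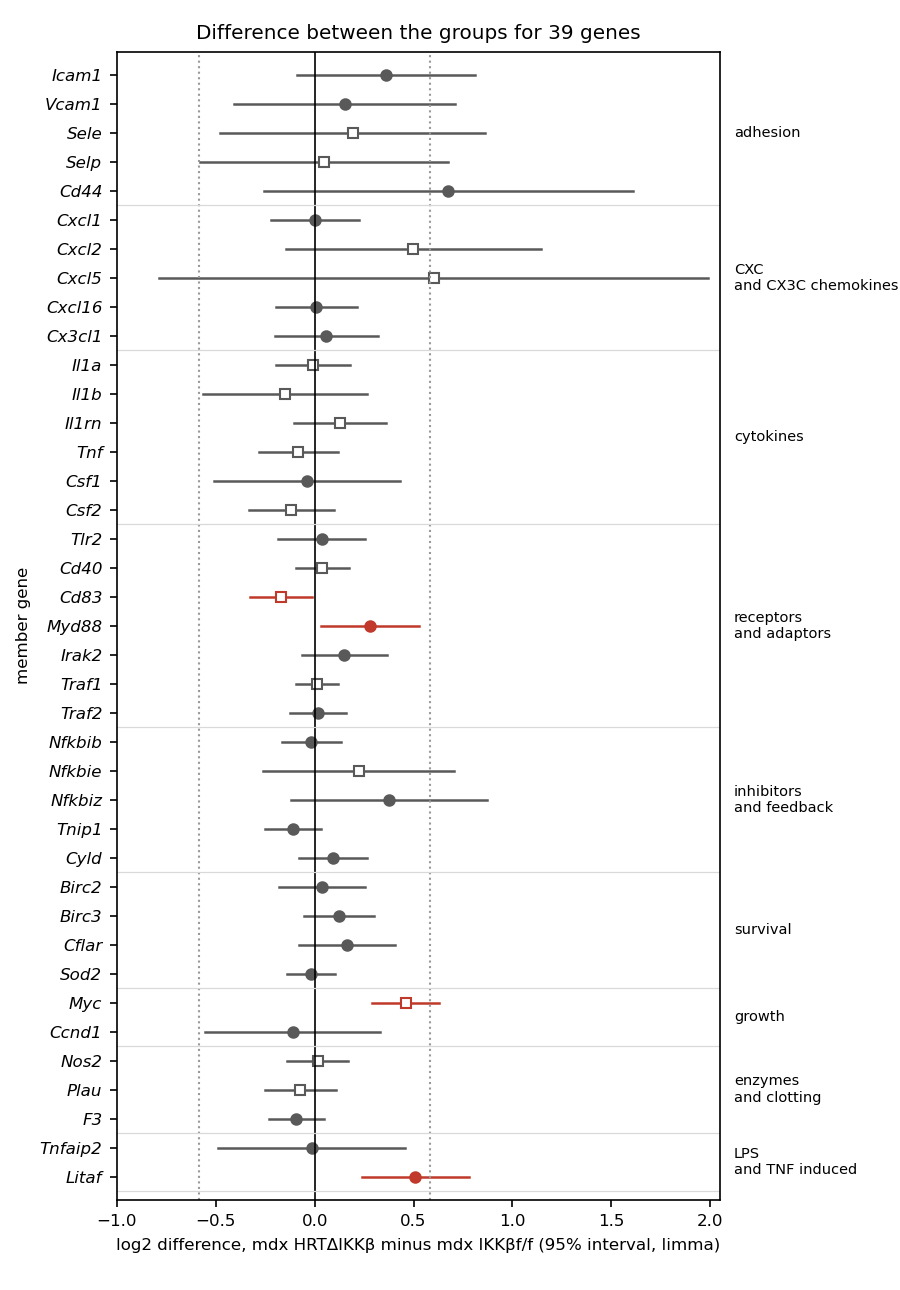
Log2 difference between the groups (x axis, positive where mdx HRTΔIKKβ hearts were higher) for the 39 genes grouped by role (y axis), with 95% intervals from limma and dotted lines at 1.5-fold. Red marks the 4 genes at an unadjusted p below 0.05 (Cd83, Myd88, Myc and Litaf). Open squares mark the 16 genes at or below the 90th percentile of 25 genes of other tissues.

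The smallest p among the 39 genes was that of Myc, a transcription factor gene that drives cell growth. It read 7.41, 7.48, 7.61 and 7.55 in mdx HRTΔIKKβ hearts 1 to 4 and 7.14, 7.08 and 6.94 in mdx IKKβf/f hearts 1 to 3. Every mdx HRTΔIKKβ heart lay above every control, and the spread within each group was small. The difference was 0.46 ± 0.07 (unadjusted p = 0.000285, adjusted p = 0.56), and it kept to between 0.40 and 0.50 when any single heart was left out. The single Myc probe set averaged 7.32, which is below the 90th percentile of genes that belong to other tissues, as described under brightness. Ccnd1, which encodes cyclin D1 and pushes cells into division, is the other growth gene and did not go with it. It read 10.59, 10.56, 10.26 and 10.35 against 10.69, 10.07 and 10.90. The controls spanned a wider range than the mdx HRTΔIKKβ hearts, and the difference of -0.11 ± 0.19 ran from -0.35 without mdx IKKβf/f heart 2 to 0.06 without mdx IKKβf/f heart 3.

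Litaf encodes a membrane protein of the endosome and lysosome that was first described through its induction by bacterial lipopolysaccharide. Its brighter probe set read 10.34, 10.62, 10.36 and 10.09 in mdx HRTΔIKKβ hearts and 9.88, 9.88 and 9.77 in the controls. The groups did not overlap, and the difference was 0.51 ± 0.12 (unadjusted p = 0.00266, adjusted p = 0.79). The other Litaf probe set read 9.63, 9.72, 9.49 and 9.35 against 9.01, 8.85 and 9.01, again without overlap, with a difference of 0.59 ± 0.10 (unadjusted p = 0.000334, adjusted p = 0.56). Tnfaip2, a gene induced by tumor necrosis factor in endothelium, differed by -0.02 ± 0.20. Its values in mdx HRTΔIKKβ hearts were 9.96, 10.44, 10.03 and 9.43, which bracket the 9.946 to 9.996 of the controls, so that hearts 2 and 4 pulled in opposite directions.

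**Figure D2:**
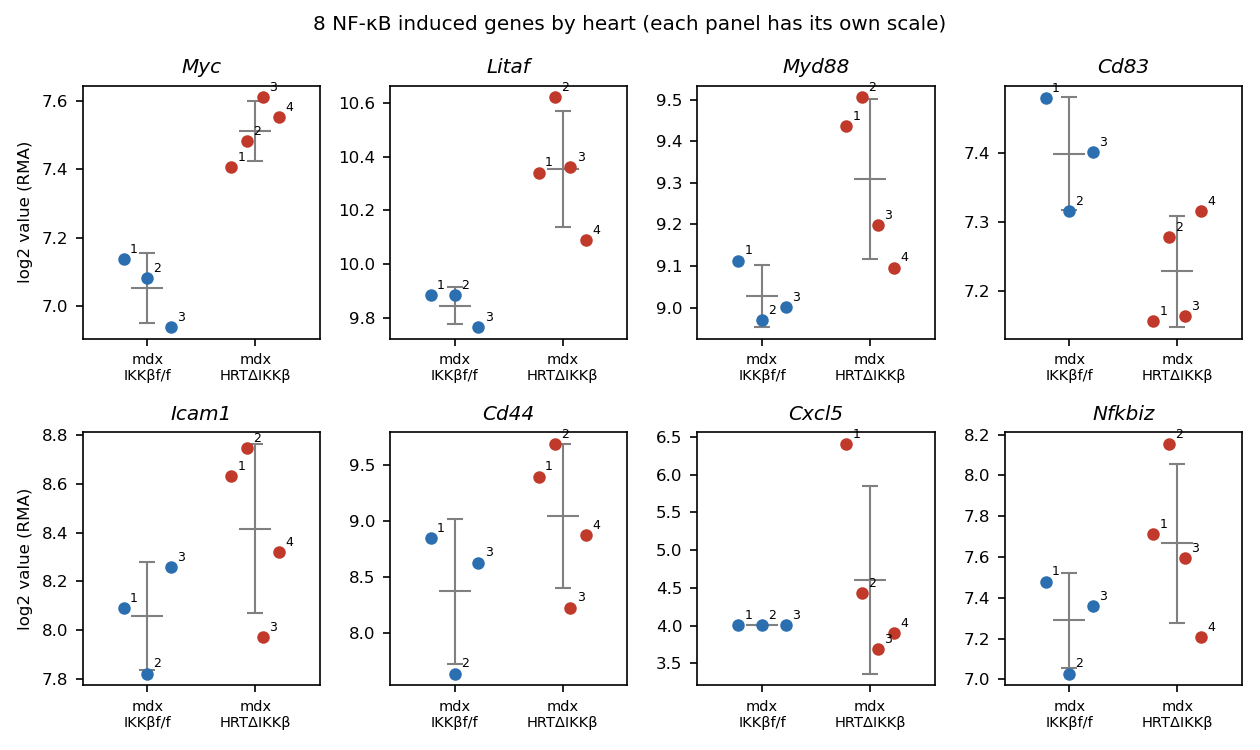
Log2 RMA values (y axis, own scale in each panel) of 8 genes, with controls in blue, the 4 mdx HRTΔIKKβ hearts in red, replicate numbers and bars at mean ± SD. The groups are apart for Myc and Litaf, while Icam1, Cd44 and Nfkbiz were highest in mdx HRTΔIKKβ hearts 1 and 2 and Cxcl5 rested on heart 1.

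The adhesion genes act where leukocytes leave the blood. Sele and Selp encode the selectins that slow rolling leukocytes, Icam1 and Vcam1 encode the ligands of leukocyte integrins, and Cd44 encodes a hyaluronan receptor of leukocytes and stromal cells. The mean of all 5 was higher in mdx HRTΔIKKβ hearts, with a median of 0.19, but none reached an unadjusted p of 0.05. Icam1 read 8.63, 8.75, 7.97 and 8.32 against 8.09, 7.82 and 8.26, a difference of 0.36 ± 0.19 (unadjusted p = 0.102). Cd44 read 9.39, 9.68, 8.22 and 8.87 against 8.85, 7.64 and 8.62, a difference of 0.68 ± 0.40 (unadjusted p = 0.132). In both genes mdx HRTΔIKKβ hearts 1 and 2 were highest, mdx IKKβf/f heart 2 was lowest and the groups overlapped. The Cd44 difference was 0.31 without that control and stood at 0.95 without mdx HRTΔIKKβ heart 3. A pair of further Cd44 probe sets showed 0.68 ± 0.41 and 0.67 ± 0.37, whereas the dimmest one, with a mean of 4.02, showed 0.01 ± 0.05.

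Sele read 6.24, 5.93, 5.13 and 5.09 in mdx HRTΔIKKβ hearts and 5.43, 5.22 and 5.57 in the controls, a difference of 0.19 ± 0.29. The mdx HRTΔIKKβ hearts thus held both the highest pair and the lowest pair of values, and without heart 1 the difference was -0.02. Selp behaved in the same manner, with 7.60, 7.87, 6.61 and 7.13 around controls at 7.25, 7.25 and 7.26 (0.05 ± 0.27). Vcam1 had another order, 9.27, 9.33, 8.84 and 9.74 against 9.31, 8.69 and 9.43 (0.15 ± 0.24), with its highest value in mdx HRTΔIKKβ heart 4. In whole hearts fewer cells of a type cannot be told apart from less RNA per cell, and this holds for every gene that a minority of heart cells expresses.

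The chemokine genes encode attractants. Cxcl1, Cxcl2 and Cxcl5 draw neutrophils, while Cxcl16 and Cx3cl1 are made as membrane proteins that bind T cells and monocytes. All 5 means were higher in mdx HRTΔIKKβ hearts, with a median of 0.06 and no gene at an unadjusted p of 0.05. Cxcl5 read 6.41 in mdx HRTΔIKKβ heart 1, 4.43, 3.68 and 3.90 in the other 3, and 4.00 in every control. A single heart therefore made the difference of 0.60 ± 0.60 (unadjusted p = 0.345), which was 0.000513 without it. Cxcl2 was also highest in that heart, at 5.94 against 5.11, 4.93 and 4.64 in the other mdx HRTΔIKKβ hearts and 4.68, 4.49 and 4.80 in the controls. Its difference was 0.50 ± 0.28 (unadjusted p = 0.112), and 0.24 without heart 1.

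The brightest Cxcl1 probe set, which the array's naming marks as open to cross-hybridization, showed 0.00 ± 0.10 with values between 8.86 and 9.24. The other Cxcl1 probe sets had a wider spread and likewise put mdx HRTΔIKKβ heart 1 at the top, at 8.35 and 9.23, with differences of 0.30 ± 0.41 and 0.11 ± 0.23. So the 3 neutrophil attractants shared their highest heart. The mean of the neutrophil markers, each centred on the 7 hearts, was -0.74 in it, below the 2.70 of mdx HRTΔIKKβ heart 2 and the 2.28 of mdx IKKβf/f heart 1 and above the -1.14 to -1.01 of the other 4 hearts. Cxcl16 (0.01 ± 0.09) and Cx3cl1 (0.06 ± 0.11) did not share that order.

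Among the cytokine genes 5 of 6 had a lower mean in mdx HRTΔIKKβ hearts, with a median of -0.06, and none reached an unadjusted p of 0.05. Il1b, which encodes the secreted form of interleukin-1, read 7.13, 6.81, 6.60 and 6.29 against 6.94, 6.76 and 6.88, a difference of -0.15 ± 0.18. Here mdx HRTΔIKKβ heart 1 was highest and heart 4 lowest, with the controls between them. Csf1, the growth factor of macrophages, ran from 9.29 to 10.17 in mdx HRTΔIKKβ hearts around controls at 9.94, 9.50 and 9.84 (-0.04 ± 0.20), and heart 1 was again the highest. Further Csf1 probe sets differed in sign, at 0.25 ± 0.15, 0.03 ± 0.08 and -0.06 ± 0.17. Tnf (-0.08 ± 0.09) and Il1a (-0.01 ± 0.08) differed by less than their standard errors, and Csf2, a growth factor of granulocytes and macrophages, by -0.12 ± 0.09 (unadjusted p = 0.238). Il1rn, which encodes the natural antagonist of the interleukin-1 receptor, was the member of this role with a higher mean (0.13 ± 0.10). Its other probe sets gave 0.46 ± 0.28 and -0.11 ± 0.06, so that they did not share a sign.

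The receptors and adaptors carry the signals that switch the pathway on. Myd88, the adaptor of Toll-like and interleukin-1 receptors, read 9.44, 9.51, 9.20 and 9.10 in mdx HRTΔIKKβ hearts and 9.113, 8.97 and 9.002 in the controls. The groups overlapped in mdx HRTΔIKKβ heart 4, which lay just below mdx IKKβf/f heart 1, and the difference was 0.28 ± 0.11 (unadjusted p = 0.0317, adjusted p = 0.796). Cd83, a surface protein of mature dendritic cells and activated lymphocytes, read 7.16, 7.28, 7.16 and 7.32 against 7.48, 7.32 and 7.40. The highest mdx HRTΔIKKβ heart and the lowest control shared the value 7.32, and the difference was -0.17 ± 0.07 (unadjusted p = 0.0345, adjusted p = 0.796). Irak2, a kinase-like partner of Myd88, differed by 0.15 ± 0.09, and its highest value, 8.51, came from mdx HRTΔIKKβ heart 3. The pattern receptor gene Tlr2 (0.03 ± 0.09), the tumor necrosis factor receptor family gene Cd40 (0.04 ± 0.06) and the adaptor genes Traf1 (0.01 ± 0.05) and Traf2 (0.02 ± 0.06) differed by less than their standard errors. Traf1 was nearly flat, with 5 of 7 hearts at 6.35.

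The next role holds inhibitors and feedback genes. Nfkbib and Nfkbie encode IκBβ and IκBε, which hold NF-κB in the cytoplasm. Nfkbiz encodes the nuclear protein IκBζ, which tunes a subset of targets, and Tnip1 and Cyld act on ubiquitin chains in the pathway. Nfkbiz read 7.71, 8.15, 7.59 and 7.21 against 7.48, 7.03 and 7.36, a difference of 0.38 ± 0.21 (unadjusted p = 0.116) that was 0.21 without mdx HRTΔIKKβ heart 2. Its other probe sets pointed the same way, by 0.28 ± 0.13 and 0.23 ± 0.15. Nfkbie read 5.45, 5.91, 5.05 and 5.11 against 5.10, 5.03 and 5.35 (0.22 ± 0.21), and without heart 2 the difference was 0.04. Nfkbiz and Nfkbie thus both had their highest value in mdx HRTΔIKKβ heart 2 and their lowest control value in heart 2. Nfkbib (-0.02 ± 0.06), Tnip1 (-0.11 ± 0.06) and Cyld (0.09 ± 0.07) differed by 0.11 or less in size.

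The survival genes were bright and nearly flat. Birc2 and Birc3 encode the ubiquitin ligases cIAP1 and cIAP2, Cflar encodes the caspase-8 inhibitor FLIP, and Sod2 encodes the manganese superoxide dismutase of mitochondria. Sod2 was the brightest of the 39, with values from 13.74 to 13.88 and a difference of -0.02 ± 0.05. Its dimmest probe set, with a mean of 8.803, showed 0.17 ± 0.08 (unadjusted p = 0.0572). Birc2 (0.04 ± 0.09) and Birc3 (0.12 ± 0.08) were both highest in mdx HRTΔIKKβ heart 3, at 9.49 and 8.79. Cflar had 5 probe sets, and the brightest differed by 0.16 ± 0.10. The next in brightness read 8.43, 8.64, 8.51 and 8.75 against 8.14, 7.66 and 8.38, with no overlap and a difference of 0.52 ± 0.16 (unadjusted p = 0.0144, adjusted p = 0.796), whereas another Cflar probe set showed -0.04 ± 0.05. The enzyme and clotting genes did not differ beyond their spread at an unadjusted p of 0.05. They were Nos2, the inducible nitric oxide synthase (0.01 ± 0.07), Plau, the urokinase plasminogen activator (-0.07 ± 0.08), and F3, tissue factor (-0.09 ± 0.06).

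**Figure D3:**
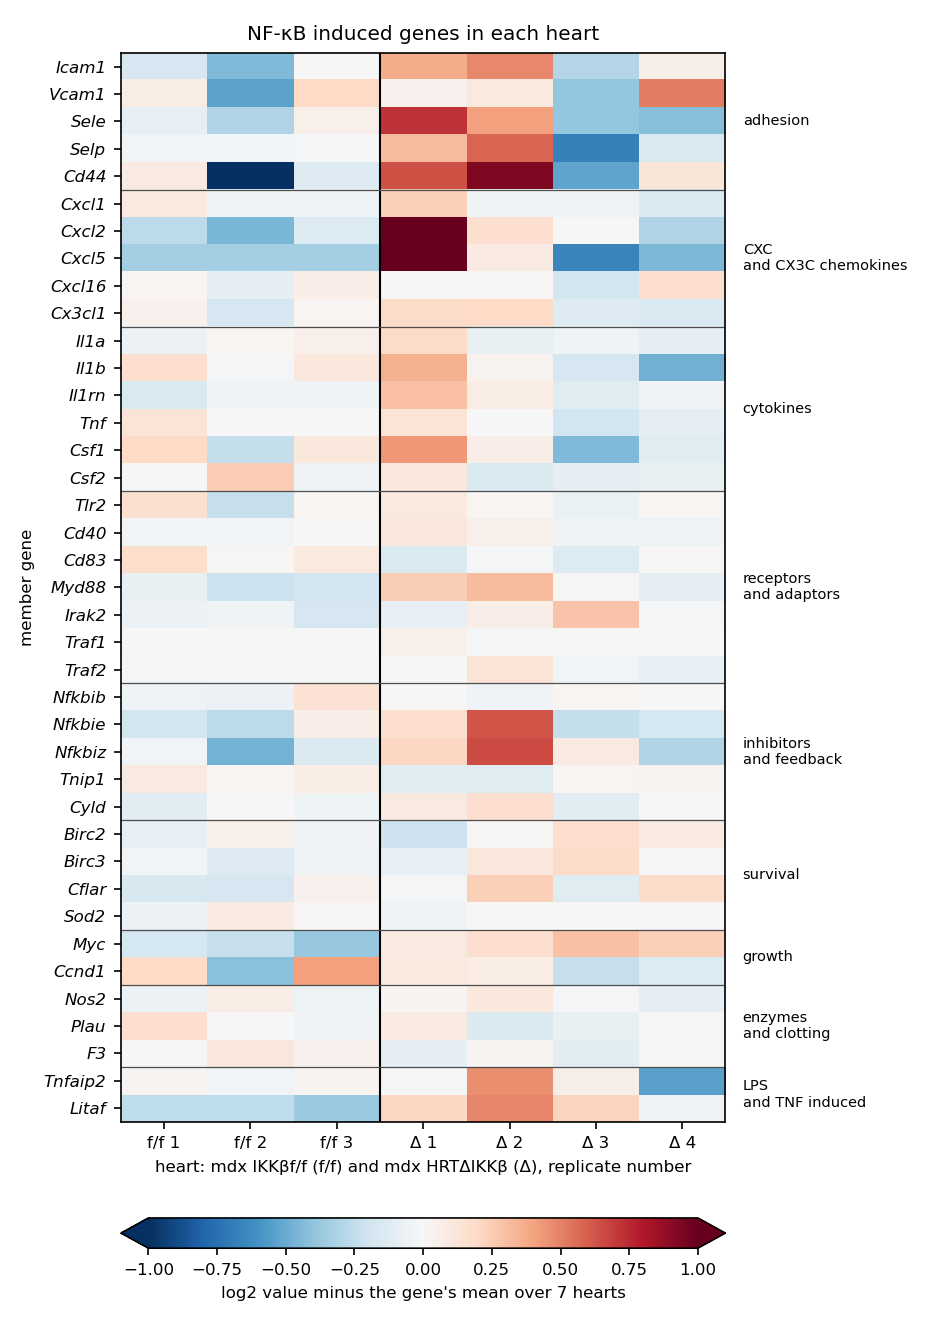
Log2 value minus the mean of the gene over the 7 hearts (colour, limited to 1 in each direction) for the 39 genes by role (y axis) in each heart (x axis), with the 3 mdx IKKβf/f hearts (f/f) left of the line and the 4 mdx HRTΔIKKβ hearts (Δ) right of it. Red gathers in mdx HRTΔIKKβ hearts 1 and 2, which held the highest value of 11 and 13 genes, and Myc and Litaf are the rows that split by group.

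The pattern across hearts was that a pair of mdx HRTΔIKKβ hearts stood above the rest. Heart 2 held the highest value of 13 genes (33.3%, against 19.5% of all genes) and heart 1 that of 11 (28.2%, against 17.4%). In mdx HRTΔIKKβ hearts 3 and 4 the corresponding numbers were 4 and 2 genes, and in the controls 4, 3 and 2. The lowest value was found in mdx IKKβf/f heart 2 for 13 genes (33.3%, against 13.7% of all genes). The mean of the centred values of the 39 genes was 0.20 and 0.16 in mdx HRTΔIKKβ hearts 1 and 2, and -0.11 and -0.07 in hearts 3 and 4. The controls, at -0.02, -0.15 and -0.02, spanned the level of the latter pair. The group difference of this mean thus rested on mdx HRTΔIKKβ hearts 1 and 2, which lay above every control. It also rested on mdx IKKβf/f heart 2, the lowest of all hearts.

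The genes were next grouped by an assigned cell source, which does not exclude that other cells also make them. The 5 vessel wall genes, Icam1, Vcam1, Sele, Selp and Cx3cl1, all had higher means, with a median of 0.15. The 12 leukocyte genes were split into 7 higher and 5 lower, with a median of 0.01. These were Cxcl2, Cxcl5, Il1a, Il1b, Il1rn, Tnf, Csf2, Tlr2, Cd40, Cd83, Traf1 and Nos2. Of the 15 genes of stroma and many cell types 9 were higher and 6 lower (median 0.01), with Myc and Litaf among the higher. The 7 genes expressed by nearly all cells were split 5 to 2 (median 0.04), led by Myd88. In the vessel wall genes mdx HRTΔIKKβ hearts 1 and 2 averaged 0.33 and 0.35, and heart 3 was the lowest of all 7 hearts at -0.37. The leukocyte genes were raised in mdx HRTΔIKKβ heart 1 at 0.36 and lay between -0.14 and 0.02 in the other 6 hearts. The dim genes Cxcl2 and Cxcl5 carried most of that value, since the other 10 averaged 0.12 in the same heart and -0.09 to 0.03 elsewhere. The genes of nearly all cells had the narrowest range of the 4 sources, between -0.06 and 0.10.

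Cell type markers that are not among the 39 genes were read in the same hearts. Over all genes, 47.7% had a higher mean. Macrophage and monocyte markers had a higher mean in 15 of 17 genes, and their mean centred values were -0.09 to 0.21 in mdx HRTΔIKKβ hearts against -0.26 to -0.09 in the controls. The 4 of them with the smallest unadjusted p are named. Lyve1, Cd163 and C1qa had no overlap between the groups (1.04 ± 0.14, 0.57 ± 0.18 and 0.41 ± 0.11), against 3.01% of all probe sets apart in this direction. Ccr2 had a lower mean (-0.41 ± 0.14). The groups overlapped for Ccr2 and for every other gene of this list. Of 12 endothelial markers 7 had a higher and 5 a lower mean, and the list ran from -0.08 to 0.22 against -0.16 to 0.03. Pecam1 (0.30 ± 0.07) and Esam (0.23 ± 0.08) were apart between the groups. Vwf also had a higher mean (0.65 ± 0.21), whereas Egfl7 had a lower one (-0.22 ± 0.13). Fibroblast markers (8 of 10 higher, -0.29 to 0.22 against -0.32 to 0.08) were lowest in mdx HRTΔIKKβ heart 3 and mdx IKKβf/f heart 2, the hearts in which the adhesion genes were lowest too. All 5 mesothelial markers had a higher mean and no overlap between the groups (-0.17 to 1.19 against -0.62 to -0.55). Those with the smallest unadjusted p were Msln (1.06 ± 0.24), Upk3b (1.66 ± 0.39), Lrrn4 (0.78 ± 0.21) and Krt19 (1.30 ± 0.43). The mean of the 8 T cell markers was highest in mdx HRTΔIKKβ heart 1 (0.82 against -0.24 to 0.00 elsewhere). The 5 atrial markers (-0.30 to 1.18 against -1.99 to 0.47) were all higher on average and lowest in mdx IKKβf/f heart 2, the control with the lowest value of 13 of the 39 genes. The 6 B and plasma cell markers were also all higher on average (-0.26 to 2.19 against -1.45 to -0.25), as were the 7 airway markers (-1.48 to 3.41 against -1.685 to -0.68). Among the B and plasma cell markers, Ighm (3.25 ± 0.71) and Mzb1 (0.71 ± 0.26) were apart between the groups. Other lists went the other way. All 13 skeletal muscle markers had a lower mean (-1.26 to 0.08 against -1.06 to 3.97). So did 7 of 8 smooth muscle and pericyte markers (-0.19 to -0.02 against -0.27 to 0.79). Neutrophil markers were split 5 to 5. The cardiomyocyte markers stayed between -0.02 and 0.03 in every heart. The part of these cell types in the values of the 39 genes was not tested.

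**Figure D4:**
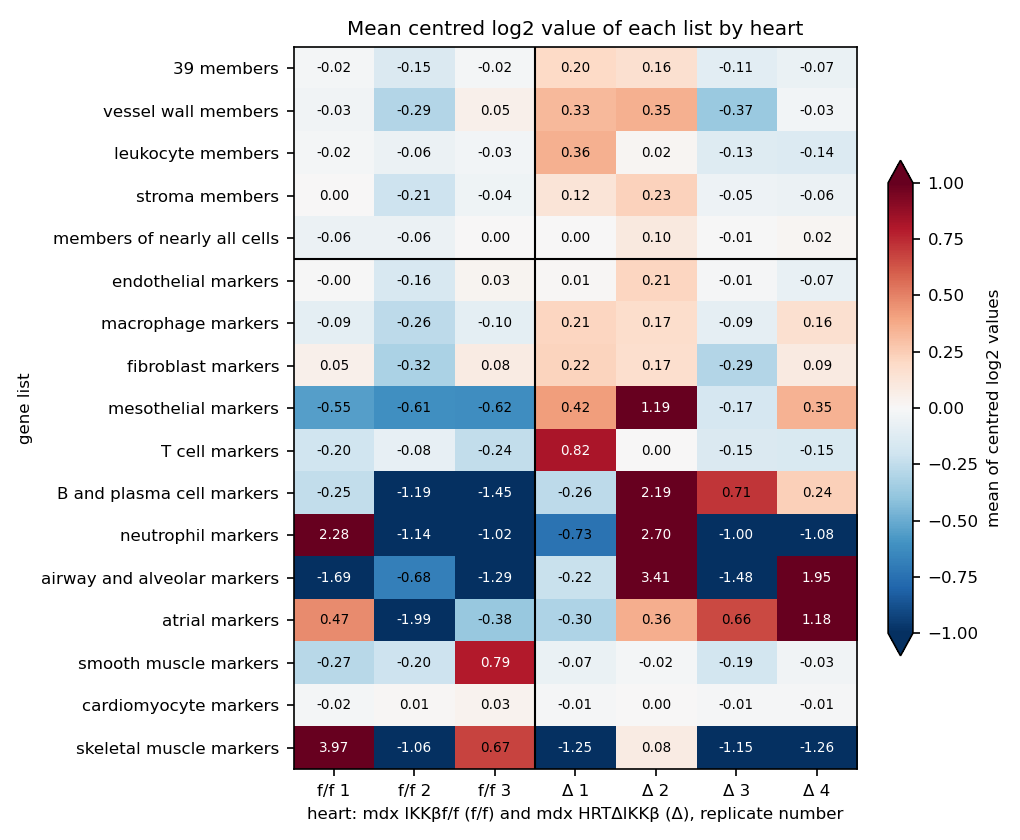
Mean of the centred log2 values (colour limited to 1 in each direction, value printed in each cell) of the 39 genes, of their 4 source groups and of marker lists of cell types (y axis) in each heart (x axis). The 39 genes and the vessel wall genes are red in mdx HRTΔIKKβ hearts 1 and 2, the macrophage markers in hearts 1, 2 and 4, and the cardiomyocyte markers are flat.

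Brightness differed widely among the 39 genes, from a mean of 4.35 for Cxcl5 to 13.8 for Sod2. Probe sets differ in how well they bind, so a level was not set against that of another gene, and 25 genes that belong to other tissues served as a guide to background. Their means had a median of 5.57, a 90th percentile of 7.46 and a range of 3.62 to 7.96. Of the 39 genes, 16 lay at or below that 90th percentile and 23 above it. Among the leukocyte genes 11 of 12 were at or below it, Tlr2 being the exception at 7.51. So were 3 of 15 genes of stroma and many cell types (Nfkbie, Plau and Myc), 2 of 5 vessel wall genes (Sele and Selp) and none of the 7 genes of nearly all cells. For leukocyte genes such as Tnf, Csf2, Nos2 and Il1a the arrays thus read a level that genes foreign to the heart also gave. The 16 genes at or below the 90th percentile had a median difference of 0.03 and the 23 above it one of 0.04. Several hearts had exactly the same value in 14 of the 39 genes, among them the 3 controls of Cxcl5 and of Traf1, which was the case for 48.7% of all probe sets. The standard deviation of such a group does not show its biological spread.

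**Figure D5:**
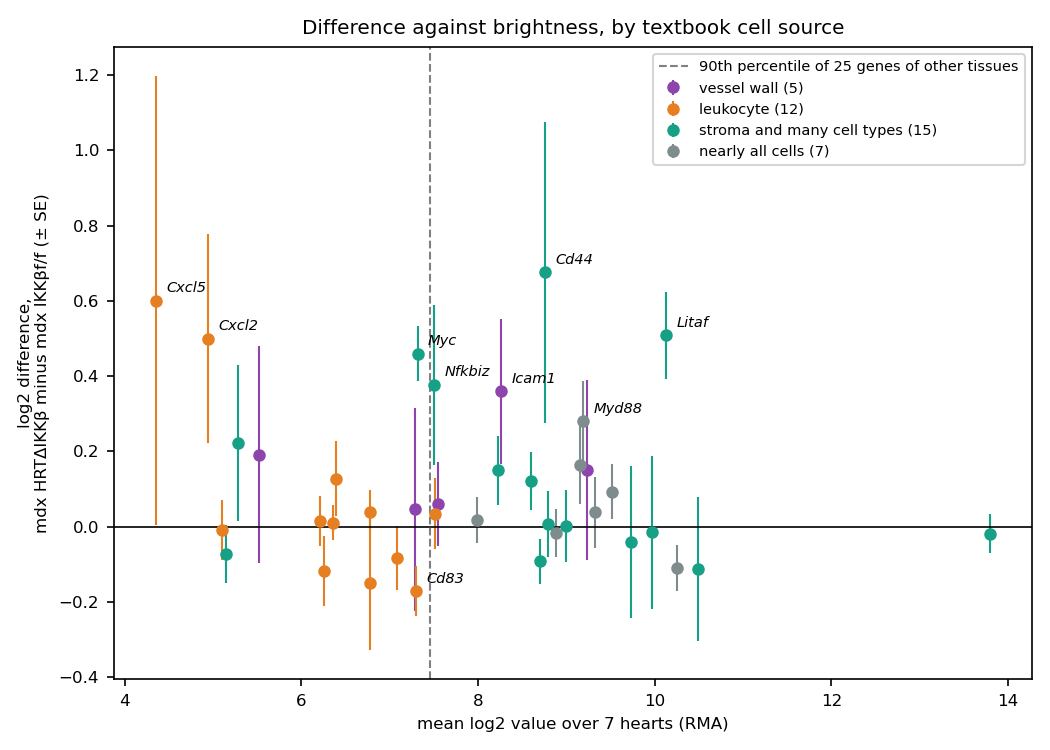
Log2 difference between the groups (positive where mdx HRTΔIKKβ hearts were higher) with its standard error (y axis) against the mean log2 value over the 7 hearts (x axis) for the 39 genes, coloured by textbook cell source. Leukocyte genes lie left of the dashed line at 7.46, the 90th percentile of genes of other tissues, except Tlr2, and the widest errors belong to Cxcl5 (0.60) and Cd44 (0.40).

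Other genes of the pathway gave the setting for these values. Of 24 genes of the NF-κB core pathway outside the 39, 16 had a higher mean (66.7%, against 47.7% of all genes, median 0.05). At an unadjusted p of 0.05 there were 2 higher genes (8.33%, against 3.31% of all probe sets) and 0 lower ones (2.76% of all probe sets). The higher were Bcl3, an unusual IκB protein that works with NF-κB in the nucleus (0.37 ± 0.12, unadjusted p = 0.0139), and Irak3, a brake on Toll-like receptor signals (0.30 ± 0.09, unadjusted p = 0.0139). The subunit gene Rel had the groups apart, at 7.25, 7.49, 7.18 and 7.15 against 7.05, 7.12 and 7.07 (0.19 ± 0.09, unadjusted p = 0.0659). Tab1, an adaptor of the kinase TAK1, followed with -0.12 ± 0.06 (unadjusted p = 0.0795).

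Of 23 further genes that NF-κB induces, 18 had a higher mean (78.3%, against 47.7% of all genes), with a median of 0.29. At an unadjusted p of 0.05, 3 were higher (13.04%, against 3.31% of all probe sets) and 1 lower (4.35%, against 2.76%). The higher were Ptgs2, which encodes cyclooxygenase-2 (0.78 ± 0.28), Bcl2l1, which encodes the survival protein Bcl-xL (0.48 ± 0.19), and Ccl5, a T cell attractant (0.29 ± 0.11). The chemokine gene Cxcl9, which interferon gamma also induces, was lower in every mdx HRTΔIKKβ heart, at 7.34, 7.26, 8.10 and 8.10 against 8.96, 8.28 and 8.18 (-0.77 ± 0.28, unadjusted p = 0.0265). Their mean centred value was 0.48 and 0.37 in mdx HRTΔIKKβ hearts 1 and 2 and between -0.33 and -0.08 in the other 5, so that the same pair of hearts stood out as for the 39 genes.

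Receptors and binding partners of the 39 genes had a higher mean in 19 of 23 (82.6%, against 47.7% of all genes), with a median of 0.12. At an unadjusted p of 0.05 there were 3 higher ones (13.04%, against 3.31% of all probe sets) and 0 lower ones (2.76% of all probe sets). Il1r1, the signalling receptor of interleukin-1, read 8.86, 8.98, 8.99 and 8.82 against 8.53, 8.54 and 8.69, without overlap (0.32 ± 0.07, unadjusted p = 0.00186, adjusted p = 0.779). Tlr6, which pairs with Tlr2, differed by 0.32 ± 0.11 (unadjusted p = 0.0246). Itgal, a chain of the leukocyte integrin that binds Icam1, read 7.45, 7.73, 6.82 and 7.04 against 7.04, 6.03 and 6.56 (0.72 ± 0.28, unadjusted p = 0.036), with mdx HRTΔIKKβ hearts 1 and 2 highest and mdx IKKβf/f heart 2 lowest, as for Icam1 itself. Tnfrsf1a, the main receptor of tumor necrosis factor, followed with 0.25 ± 0.11 (unadjusted p = 0.063). The ligand genes Il1a, Il1b and Tnf had no such difference, as given above. None of the genes in these 3 lists passed limma's test after adjustment.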

How the data were processed

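RNA from whole hearts was hybridized to Affymetrix GeneChip Mouse Genome 430 2.0 arrays, 1 heart per array, and all samples were biological replicates according to the methods. The deposited values are log2 values that the authors obtained by RMA, which corrects background, sets the arrays to a common distribution and summarizes the probes of each probe set. The methods and the submitters' processing notes name Partek and Affymetrix Expression Console, without versions, and do not say which of them made the deposited table. Equalizing the distributions removes any shift common to all genes, and RMA compresses differences of dim probe sets. The number of arrays limits the precision.

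From these values 4 mdx HRTΔIKKβ hearts were compared with 3 mdx IKKβf/f hearts in a linear model fitted to all 45037 probe sets (R 4.3.3, limma 3.58.1, moderated by eBayes). Tests were two-sided, and p-values were adjusted over all probe sets after Benjamini and Hochberg. The procedure was tested on simulated data. Genes were named through the platform annotation from the 34945 probe sets with 1 symbol (932 had several and 9160 none), and all 39 symbols matched RefSeq. The 39 genes and every list were chosen with earlier results of these data known. All 39 are named, and from each other list at most 4 genes with the smallest unadjusted p. Ikbkb, Myh6 and, among the closing observations, Il6, Ccl2 and Ccl7 fall outside that rule and were picked after their values were seen. Sources and roles of genes are textbook assignments. Brightness used 25 genes of other tissues and their 90th percentile. Promoter windows of 300 bases came from RefSeq (GRCm38.p6). Alternatives were a median centring of the arrays, a second quantile normalization, a filter on mean log2 values under 6, the mean of all probe sets of a gene, no cross-hybridizing probe set, trended and robust variance, array weights, the methods' t-test (unpaired Student), the replicate number as a block, and each heart left out in turn. Leaving out the heart with the highest skeletal muscle markers together with that with the highest airway markers was added after seeing the data. In that fit mdx HRTΔIKKβ heart 4, whose airway markers were also raised, was kept.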

Additional observations from a re-analysis of the deposited data

Results flagged for a closer look

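Among the 4 mdx HRTΔIKKβ hearts, heart 1 stood far from the others for 2 of the 39 genes. For Il1a it read 5.292, where the other 3 hearts lay between 5.009 and 5.053, so that the gap to the nearest of them was 0.847 of the whole range, above the critical value for 4 samples. For Sod2 it read 13.76, where the other 3 all read 13.80, a gap of 0.03 that made up the whole range because those hearts had the same value. Among 39 genes, chance alone flags about 1 group in 20. The 3 mdx IKKβf/f hearts were too few for this check. A difference between groups under a second contrast could not be computed, since the arrays hold a single contrast.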

How the results depend on the processing

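No member passed an adjusted p of 0.05 under any of the alternatives, with counts of 0 throughout. At an unadjusted p of 0.05 the count of 4 genes ranged from 2 (without mdx HRTΔIKKβ heart 1, or without mdx IKKβf/f heart 3) to 6 (without mdx HRTΔIKKβ heart 3 or heart 4) when single hearts were left out (5.13% to 15.4% of the genes, against 4.48% to 7.47% of all probe sets), and Myc and Litaf were among the genes counted each time. It was 2, again Myc and Litaf, without mdx IKKβf/f heart 1 and mdx HRTΔIKKβ heart 2 together (5.13%, against 3.87% of all probe sets), a choice made after seeing the data. The count of 2 genes whose groups did not overlap was 5 after a second quantile normalization (12.8%, against 7.625% of all probe sets) and 5 without that pair of hearts (12.8%, against 15.5%). It ranged from 2 to 6 over single hearts left out (5.13% to 15.4%, against 7.41% to 14.3% of all probe sets), where fewer hearts make overlap rarer by construction. The median difference of 0.04 ranged from 0.01 to 0.07 over left-out hearts. With the replicate block, from which mdx HRTΔIKKβ heart 4 drops out for want of a partner, 4 genes were again counted (Cxcl2, Myd88, Myc and Litaf) and the median was 0.05. Deviations of same-numbered hearts from their group means did not go together (correlations of -0.08, -0.38 and -0.04), so the numbers were not taken as pairs. Without mdx HRTΔIKKβ heart 1, 1 probe set of the whole table, which belongs to none of the 39 genes, passed the adjusted threshold.

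Of the 39 genes, 20 kept their sign under every one of the alternatives and 19 did not, the largest difference among the latter being 0.19 in size. The cause was not tested. Over left-out hearts the difference ranged from -0.013 to 0.112 for Birc2, -0.354 to 0.0615 for Ccnd1, -0.19 to 0.101 for Csf1, -0.00835 to 0.118 for Cx3cl1, -0.0771 to 0.0501 for Cxcl1, -0.0483 to 0.0699 for Cxcl16, -0.074 to 0.0203 for Il1a, -0.0529 to 0.0505 for Nfkbib and -0.0192 to 0.0575 for Nos2. It ranged from -0.0237 to 0.36 for Sele, -0.142 to 0.277 for Selp, -0.0532 to 0.0161 for Sod2, -0.0714 to 0.122 for Tlr2, -0.172 to 0.163 for Tnfaip2, -0.00521 to 0.0192 for Traf1, -0.021 to 0.0476 for Traf2 and -0.0741 to 0.302 for Vcam1. Centring the arrays on their median gave -0.000177 for Cxcl1. A second quantile normalization gave -0.0246 for Cxcl1, -0.0141 for Cxcl16, 0.00407 for Il1a and -0.00271 for Traf2. The mean of all probe sets of a gene gave 0.0453 for Csf1, -0.0251 for Cyld and 0.0447 for Sod2. Leaving out cross-hybridizing probe sets gave 0.0348 for Tnfaip2. The replicate block gave -0.0483 for Cxcl16, 0.0203 for Il1a and 0.163 for Tnfaip2. Array weights gave -0.00927 for Sele, -0.0723 for Selp, -0.0349 for Cxcl1, -0.0199 for Cx3cl1, -0.00645 for Tlr2 and -0.00748 for Traf2. Leaving out the pair of hearts together gave -0.143 for Selp, 0.0211 for Csf1, -0.0267 for Traf2, -0.0428 for Nos2 and 0.0278 for Plau. The filter on dim probe sets removed 6 of the 39 genes. The number of arrays limits what can be resolved to differences beyond the intervals given.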

Other observations

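The heart that was highest for Cxcl2 and Cxcl5, mdx HRTΔIKKβ heart 1, was also highest for some other inflammatory genes that NF-κB induces. These were picked after their values were seen, and others of the same list were highest elsewhere. Ptgs2 was highest in mdx HRTΔIKKβ heart 2, Bcl2l1 in heart 3, Ccl5 in heart 4 and Cxcl9 in mdx IKKβf/f heart 1. Il6, a cytokine of the acute phase, read 6.08 in mdx HRTΔIKKβ heart 1, 4.70, 4.57 and 4.12 in the other mdx HRTΔIKKβ hearts and 4.02 to 4.15 in the controls. Ccl2, which draws monocytes, read 10.53 in heart 1 and 9.37 in heart 2, against 7.36 and 7.44 in hearts 3 and 4 and 7.31 to 7.55 in the controls. Ccl7, a neighbour of Ccl2 with a like function, followed the same order, at 8.72 and 7.79 against 6.53 and 6.28, with the controls between 6.01 and 6.55. Heart 1 also read highest for the T cell receptor complex genes Cd3g, at 7.30 against 5.39 to 5.51 in the other mdx HRTΔIKKβ hearts, and Cd3d, at 8.19 against 6.66 to 6.74. Cd2, another T cell marker, was instead highest in mdx HRTΔIKKβ heart 2, at 6.55 against 5.75 in heart 1. The unadjusted p-values of limma were 0.105 for Il6, 0.126 for Ccl2, 0.119 for Ccl7, 0.0929 for Cd3g, 0.172 for Cd3d and 0.131 for Cd2. Whether these values share a source was not tested.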
